A study of Rattus norvegicus with 23 samples.

Results

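Among 16 rat mammary carcinomas profiled on miRNA arrays, 2 had no measurable signal for the miR-200 family, and these 2 carcinomas are described here against the 14 others. They were picked by a value under 100 for miR-200c in the authors' deposited table of linear array signals. Spontaneous carcinoma 1 and radiation-induced carcinoma 3 both stood there at 5, the lowest value in the table, for miR-200c and for miR-141. The carcinoma just outside the limit, spontaneous carcinoma 7, stood at 2190 for miR-200c and at 1158 for miR-141, and the highest of the 14 others stood at 10068 for miR-200c. The choice used these same arrays, so all comparisons of the 2 carcinomas with the 14 others are descriptions and carry no test.

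The series held 23 arrays of total RNA from female Sprague-Dawley rats, an outbred strain prone to mammary tumours. There were 8 carcinomas that arose spontaneously, 8 induced by radiation and 7 normal mammary tissues. The radiation dose, the ages and the time to tumour were not given in the sources used here, and no further agent or allele was named. Each carcinoma carried a different code in its label. Nothing was said of cell sorting, so each array measured a mixture of the cells in the tissue.

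miRNAs are short RNAs that guide silencing proteins to messenger RNAs, mostly by pairing through a stretch near their 5′ end called the seed. The miR-200 family (miR-200a, miR-200b, miR-200c, miR-141 and miR-429) is made in epithelial cells, where it silences the transcription factors Zeb1 and Zeb2, repressors of E-cadherin. Zeb1 and Zeb2 repress the family in turn, and low miR-200 is a known feature of cells that have left the epithelial state and of cells of mesenchymal origin. In the mammary gland the family is made by luminal and basal epithelium, whereas miR-199a and miR-214 come mainly from fibroblasts and other mesenchymal cells.

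Mature sequences of the miRNAs that set the 2 carcinomas apart are given from RefSeq (assembly GRCr8), 5′ to 3′, with the seed (bases 2 to 8) in capitals. Of 35 miRNAs looked up by name, 30 had an entry. miR-200a, miR-200b and miR-429 are named only. Array names that give no arm were matched to the arm listed under that name today. The epithelial miRNAs, lower in both carcinomas than in all 14 others, carried 9 different seeds. Those of miR-200c and miR-141, of miR-96 and miR-182, and of miR-96 and miR-183 nevertheless share most of their letters.
miR-200c: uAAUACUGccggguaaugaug
miR-141: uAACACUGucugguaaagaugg
miR-96: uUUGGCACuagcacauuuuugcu
miR-182: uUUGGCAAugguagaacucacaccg
miR-183: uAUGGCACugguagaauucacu
miR-203: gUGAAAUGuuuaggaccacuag
miR-205: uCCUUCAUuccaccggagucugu
miR-375: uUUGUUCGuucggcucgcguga
miR-31: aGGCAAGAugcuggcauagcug

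The mesenchymal miRNAs, higher in both carcinomas than in all 14 others, are both arms of miR-199a and miR-214, and they share no seed.
miR-199a-5p: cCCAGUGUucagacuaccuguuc
miR-199a-3p: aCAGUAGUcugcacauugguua
miR-214: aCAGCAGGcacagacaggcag

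The miRNAs of the miR-17/miR-92a cluster and its paralogues parted the 2 carcinomas from each other. Seed AAAGUGC is shared by miR-17-5p, miR-20a, miR-106b, miR-93 and miR-20b-5p, seed GUGCAAA by miR-19a and miR-19b, and seed AUUGCAC by miR-92a, miR-25 and miR-363.
miR-17-5p: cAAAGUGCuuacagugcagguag
miR-20a: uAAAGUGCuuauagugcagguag
miR-106b: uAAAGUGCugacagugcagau
miR-93: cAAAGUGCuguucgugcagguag
miR-20b-5p: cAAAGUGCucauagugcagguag
miR-18a: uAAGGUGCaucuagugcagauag
miR-19a: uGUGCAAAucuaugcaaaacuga
miR-19b: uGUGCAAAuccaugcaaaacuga
miR-92a: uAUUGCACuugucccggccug
miR-25: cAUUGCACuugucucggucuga
miR-363: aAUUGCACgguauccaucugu

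Of the miRNAs that were high in only 1 of the 2 carcinomas, miR-130b and miR-301b share a seed and stood out in spontaneous carcinoma 1, and miR-196a was highest in radiation-induced carcinoma 3, close to radiation-induced carcinoma 7. miR-125b-5p was low in the former and high in the latter.
miR-130b: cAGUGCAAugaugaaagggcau
miR-301b: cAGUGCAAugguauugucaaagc
miR-196a: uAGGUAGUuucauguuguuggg
miR-125b-5p: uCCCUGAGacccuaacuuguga

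Levels below are log2 of the background-subtracted spot signal, averaged per probe and scaled so that the arrays match on 199 probes detected everywhere. Signals under the lowest one that can be read above background were set to a floor of 3.30, and levels at the floor have no order. Of 350 miRNAs on the array, 218 were detected on at least 2 carcinomas and were compared. Among these, 1 (miR-382) passed only through the 2 carcinomas lacking miR-200 and 9 passed with fewer than 2 of the 14 others, so their comparison was made only because a carcinoma lacking miR-200 showed them. A miRNA is called below or above here where the array lay outside the whole range of the 14 others.

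Both carcinomas lay below all 14 others for 18 of 218 miRNAs (8.26%) and above all 14 for 4 of 218 (1.83%). All 18 were detected on all 14 other carcinomas, 8 of the 18 were not detected on either carcinoma lacking miR-200, and 17 of the 18 also lay below all 7 normal tissues on both. Because the 2 arrays were chosen on miR-200c, nothing is read from these shares. Set against only the 7 others of its own kind, each of the 2 arrays left 29 miRNAs below on both and 10 above on both. The range of 7 of these arrays can be no wider than that of all 14.

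The miR-200 family headed the list. miR-200c lay at the floor of 3.30 on both arrays, against 11.83, 12.29 and 13.20 for the lowest, the median and the highest of the 14 others and 9.93 to 11.82 in normal tissue. miR-141, which lies 440 bases from miR-200c on chromosome 4, lay at the floor on both and at 11.59, 11.96 and 13.02 in the 14 others. The gap between the 2 carcinomas and the nearest other carcinoma was thus far wider than the whole spread of the others.

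The second gene cluster of the family, on chromosome 5, was as low as the first. miR-200b was at the floor on both arrays and ran through 11.01, 11.93 and 12.17 in the 14 others. miR-200a, 778 bases from miR-200b, was at the floor on both and ran through 10.47, 11.49 and 11.94. miR-429, the dimmest of the family in these carcinomas, was at the floor on both and ran through 9.69, 10.66 and 10.89. Both clusters were therefore without a readable signal in both carcinomas, while all 7 normal tissues had all 5 members well above background.

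As the family was not above background on either array, its folds are lower bounds. They set the mean of the 14 others against the lowest signal well above background on the array in question, or against the floor where that is higher. miR-200c was at least 350-fold lower in spontaneous carcinoma 1 and at least 537-fold lower in radiation-induced carcinoma 3. For miR-429 the bounds were at least 101-fold and at least 154-fold. None of the 10 probes for the family, with 100 spots per array in all, was detected on either array. Before scaling, the highest signal of any family probe was 0.386 in spontaneous carcinoma 1 and 5.41 in radiation-induced carcinoma 3. After scaling, every member of the family lay at the floor of 9.82 on both arrays. In tissue RNA, fewer epithelial cells and less of these miRNAs per epithelial cell cannot be told apart.

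The other epithelial miRNAs went the same way, so the markers that would go with the label of carcinoma were low or absent in both arrays so labelled. The miR-183, miR-96 and miR-182 cluster is made in epithelia and sensory organs and spreads over 3595 bases of chromosome 4. All 3 members lay below all 14 others on both arrays, as did 8.26% of all miRNAs compared. miR-96 stood at 4.39 in spontaneous carcinoma 1 and at the floor in radiation-induced carcinoma 3, against 9.09, 9.80 and 10.55 in the others. miR-183 stood at 3.98 and at the floor, against 7.96, 8.57 and 9.24. miR-182 was at the floor on both, against 6.86, 7.70 and 8.64. miR-96 and miR-183 were thus still read above background in spontaneous carcinoma 1, at 42.7-fold and 25.8-fold under the mean of the others, and no member of the cluster was in radiation-induced carcinoma 3.

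All 4 miRNAs of more restricted epithelial lineages also lay below all 14 others on both arrays, where 8.26% of all miRNAs compared did. miR-205, a miRNA of basal and stratified epithelium, was at the floor in spontaneous carcinoma 1 and at 6.33 in radiation-induced carcinoma 3, against 7.56, 9.96 and 11.88 in the others and 9.22 to 9.98 in normal tissue. It was the only one of the epithelial miRNAs named here, the miR-200 family included, that radiation-induced carcinoma 3 still showed above background, 12.2-fold under the mean of the others. miR-203, which restrains stem-cell factors in skin, stood at 4.71 and at the floor, against 6.22, 7.45 and 10.88.

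miR-375, known from endocrine and luminal epithelial cells, was at the floor on both, against 5.93, 7.26 and 10.62. miR-31, abundant in skin epithelium, was at the floor on both, against 4.67, 8.48 and 11.05. The lowest of the 14 others came close to the floor for miR-31, and with quantile normalization, without scaling or with a raised floor miR-31 no longer lay outside the others. Without scaling, miR-205 in radiation-induced carcinoma 3 also fell inside their range, which left 2 of these 4 miRNAs below there.

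**Figure D1:**
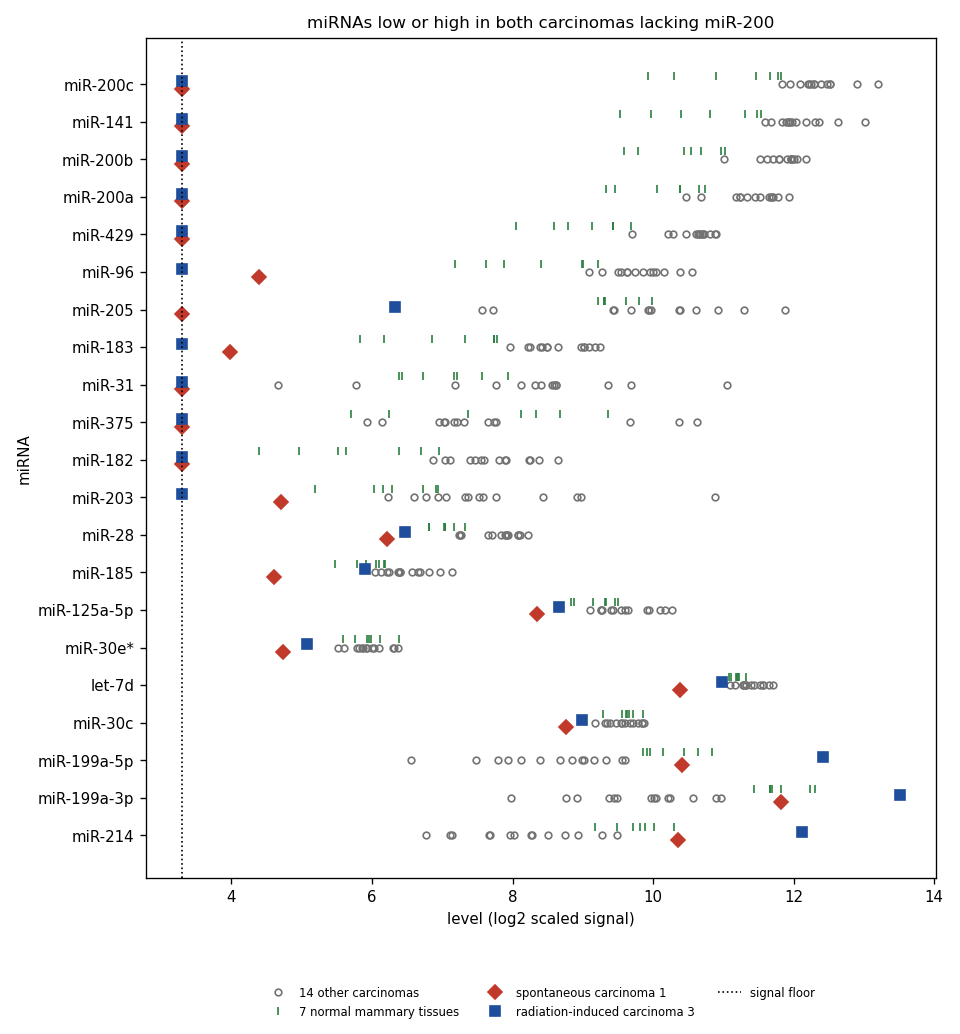
Level of the miRNAs below or above all 14 others on both arrays (near-floor miR-350 left out), on a log2 scale of scaled signal; each point or tick is 1 array and the dotted line is the floor at 3.30. The 5 members of the miR-200 family lie at the floor on both carcinomas lacking it and between 9.69 and 13.20 on the 14 others, and miR-199a and miR-214 lie to the right of all 14 others.

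The remaining 6 shared low miRNAs are not epithelial markers, and their differences were small. miR-28 stood at 6.21 and 6.47, against 7.24 to 8.23 in the others. miR-125a-5p, a relative of the developmental timer lin-4 of worms, stood at 8.35 and 8.66, against 9.10 to 10.27. miR-30e* stood at 4.74 and 5.07, against 5.52 to 6.37. In these 3 the 2 carcinomas lay close to each other, at 1.85-fold to 3.00-fold under the mean of the others.

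miR-185 stood at 4.61 and 5.90, against 6.04 to 7.14. miR-30c stood at 8.77 and 8.99, against 9.18 to 9.87. let-7d, of the let-7 family of differentiation miRNAs, stood at 10.38 and 10.99, against 11.10 to 11.71. Each of the 6 lost its place below all 14 others in radiation-induced carcinoma 3 under 3 or more of the 10 other ways of processing. For let-7d the sign of the difference changed too, from -0.41 to 0.22 without scaling.

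Both carcinomas stood above all 14 others for both arms of miR-199a and for miR-214, which are made largely from a shared transcript antisense to the dynamin gene Dnm3 in mesenchymal cells. miR-199a-5p stood at 10.41 in spontaneous carcinoma 1 and 12.41 in radiation-induced carcinoma 3, against 6.55, 8.76 and 9.60 for the lowest, median and highest of the others. miR-199a-3p stood at 11.82 and 13.51, against 7.98 to 10.96. miR-214 stood at 10.35 and 12.12, against 6.77, 8.14 and 9.48. All 3 were therefore higher in radiation-induced carcinoma 3 than in spontaneous carcinoma 1, and above the mean of the others by 13.3-fold to 15.9-fold in the former and by 3.68-fold to 4.67-fold in the latter.

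Normal mammary tissue had these miRNAs too. It spanned 9.86 to 10.84 for miR-199a-5p, 11.43 to 12.31 for miR-199a-3p and 9.18 to 10.30 for miR-214. Radiation-induced carcinoma 3 lay above all 7 normal tissues in all 3, whereas spontaneous carcinoma 1 lay within their range for both arms of miR-199a and just above it for miR-214. Without scaling, 1 of the 3 remained above all 14 others in spontaneous carcinoma 1, and with the deposited values 2 did. The fourth miRNA above on both arrays, miR-350, was near the floor everywhere, at 3.87 and 3.31 against 3.30 in all 14 others, and carries no readable difference.

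Levels of other cell types' miRNAs moved as well, and their part in the results above was not tested. The summed level of miR-199a and miR-214 was 12.62 in spontaneous carcinoma 1 and 14.40 in radiation-induced carcinoma 3, against 8.83 to 11.77 in the 14 others and 12.06 to 13.00 in normal tissue. That of miR-143 and miR-145, miRNAs of smooth muscle and of pericytes, was 10.13 and 11.78, both within the 9.86 to 13.73 of the others. The mesenchymal markers thus did not all stand apart from the others. Against the 7 others of its own kind alone, miR-143 and miR-145 lay below in radiation-induced carcinoma 3.

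Of the 7 leukocyte miRNAs compared, 5 lay below all 14 others in spontaneous carcinoma 1, where 28.9% of all miRNAs compared did, and none lay outside the range in radiation-induced carcinoma 3. miR-142-3p, found in nearly all blood cells, stood at 6.78 and 9.12 in the 2 carcinomas, against 8.67, 10.03 and 11.81 in the others. miR-150, of mature lymphocytes, stood at 3.55, under background, and at 6.91, against 5.47, 6.85 and 9.10. miR-223, of myeloid cells, stood at 6.48 and 9.49, against 7.32, 8.82 and 10.04. The other 2, miR-342-3p and miR-342-5p, stood at 7.82 and 4.11 in spontaneous carcinoma 1, within the 6.40 to 8.08 and 3.30 to 4.58 of the others but above all 7 others of its own kind. The summed leukocyte level was 9.13 and 11.17, against 10.53 to 12.78 in the 14 others and 11.24 to 12.32 in normal tissue, so only spontaneous carcinoma 1 lay under both ranges.

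Among the 4 endothelial miRNAs compared, 1 lay below all 14 others in spontaneous carcinoma 1, while 3 lay above and 1 below in radiation-induced carcinoma 3. Over all miRNAs compared, these shares were 28.9%, 13.8% and 20.2%. miR-126, the main miRNA of endothelial cells, stood at 8.22 in spontaneous carcinoma 1, below all 14 others, and at 11.38 in radiation-induced carcinoma 3, above all 14 and all 7 normal tissues, against 8.33, 9.41 and 10.02 in the others. Its partner strand miR-126* was at the floor in the former and at 6.02 in the latter, against 3.30, 3.97 and 4.63. miR-139-3p went the other way, at 7.62 in the former and 4.67 in the latter, against 4.99, 7.26 and 9.36. In spontaneous carcinoma 1 miR-126 lay just under the others and fell inside their range with quantile normalization or normexp. The summed level of the 4 endothelial miRNAs was 9.01 and 11.44, against 8.56 to 10.62 in the 14 others and 10.72 to 11.30 in normal tissue.

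Of the other marker lists, neither of the 2 erythroid miRNAs and none of the 5 adipose miRNAs compared lay outside the others on either array, and the summed erythroid level of 7.66 and 7.01 was within the 5.20 to 9.53 of the others. Of the 4 striated muscle miRNAs, 1 lay above on each array. These were miR-1 at 4.87 in spontaneous carcinoma 1 and miR-499 at 4.43 in radiation-induced carcinoma 3, both near the floor. Since miR-1 was detected on 1 of the 14 others, it was compared only because a carcinoma lacking miR-200 showed it. Of the 6 neural miRNAs compared, 3 lay above all 14 others in spontaneous carcinoma 1 and 1, miR-7a*, lay below in radiation-induced carcinoma 3. Over all miRNAs compared, 28.4% lay above in the former, and 13.8% lay above and 20.2% below in the latter. miR-219-5p stood at 6.40 in the former, against 5.10 to 6.00. miR-9, known from neural progenitors, stood at 7.18 and its partner strand miR-9* at 7.52 in spontaneous carcinoma 1, against at most 5.69 and 5.70 in the others. Both were detected on 2 of the 14 others and were at the floor in radiation-induced carcinoma 3.

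**Figure D2:**
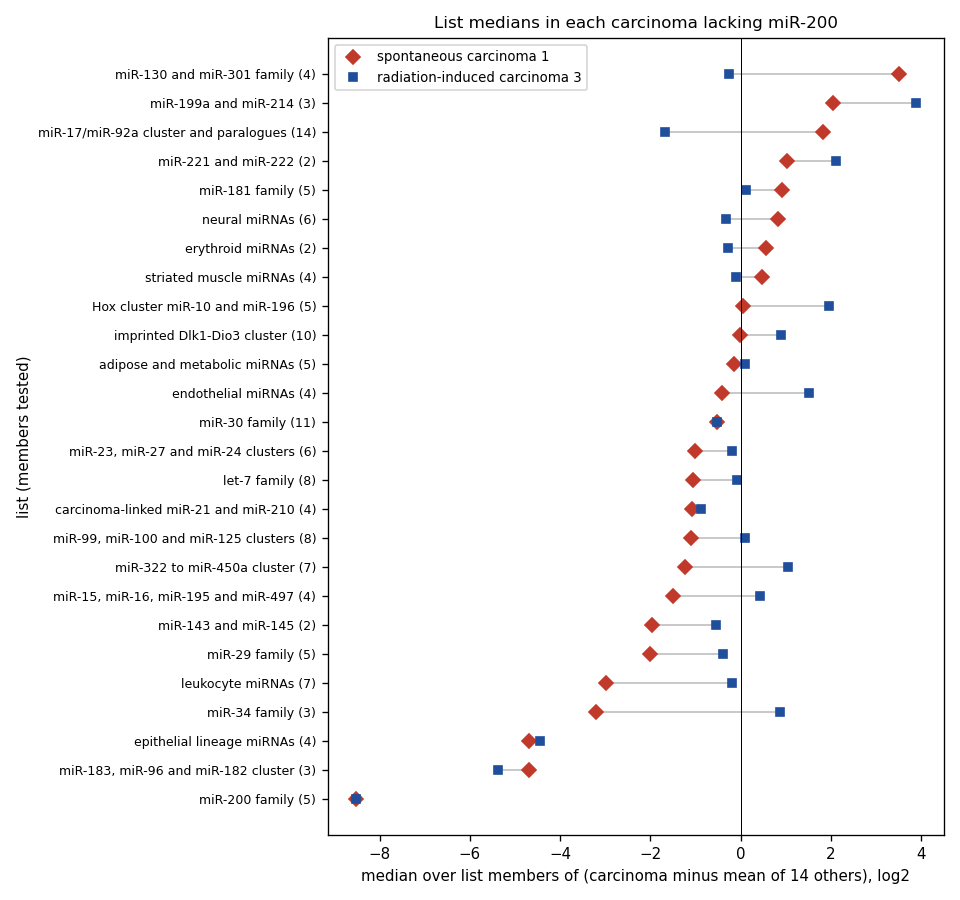
Median over the members of each miRNA list of the difference from the mean of the 14 others (log2), for each carcinoma lacking miR-200, with the number of members compared in brackets. Both carcinomas have medians under -4 for the 3 epithelial lists and over 2 for miR-199a and miR-214, while the miR-17/miR-92a list lies at 1.83 in spontaneous carcinoma 1 and at -1.67 in radiation-induced carcinoma 3; several medians of radiation-induced carcinoma 3 near 0, such as that of let-7, change sign with the scaling.

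Of 156 miRNAs outside the range of the 14 others on at least 1 of the 2 arrays, 22 lay outside on the same side on both. The number shared changed with the processing, as given in the closing section. Spontaneous carcinoma 1 lay below all 14 others for 63 of 218 miRNAs (28.9%) and above them for 62 (28.4%). Radiation-induced carcinoma 3 lay below for 44 (20.2%) and above for 30 (13.8%). Only 62 of the 218 lay within the range of the others on both arrays, and the median difference from the others over all 218 was -0.17 and -0.25. Of the 62 miRNAs above in spontaneous carcinoma 1, 57 were also above all normal tissues, and of the 30 above in radiation-induced carcinoma 3, 23 were.

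Across the 218 miRNAs, the levels of spontaneous carcinoma 1 correlated with those of each of the 14 others at a mean r of 0.646, and those of radiation-induced carcinoma 3 at 0.761. The 14 others correlated among themselves at mean values of 0.921 to 0.957. The correlation of the 2 with each other was 0.696. That was lower than the value of radiation-induced carcinoma 3 with the others but higher than that of spontaneous carcinoma 1 with them. With the 12 miRNAs of the 3 epithelial lists left out, the values became 0.772 and 0.885 with the others and 0.678 between the 2. Radiation-induced carcinoma 3 was closer to normal tissue (0.848) than spontaneous carcinoma 1 (0.657). These are correlations across miRNAs, which are not independent, and the levels shared a platform and a floor.

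Spontaneous carcinoma 1 had all compared members of the miR-17/miR-92a cluster and its paralogues above all 14 others. This polycistron, activated by Myc and E2F, holds back brakes on the cell cycle and on cell death. Of its 16 listed miRNAs 14 were compared, and all 14 lay above the others in spontaneous carcinoma 1 while 10 lay below them in radiation-induced carcinoma 3. The counts were 9 and 7 without scaling and 8 and 6 with the deposited values. Over all miRNAs, 28.4% lay above in spontaneous carcinoma 1 and 20.2% below in radiation-induced carcinoma 3. Both held for 14 of 218 (6.42%), which include these 10, and 7 of 218 (3.21%) went the other way round. This difference between the 2 carcinomas was not tested.

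miR-17-5p stood at 11.04 in spontaneous carcinoma 1 and 6.70 in radiation-induced carcinoma 3, against 8.10, 8.73 and 9.74 in the others and 6.92 in the lowest normal tissue. miR-20a, with the same seed, stood at 12.50 and 8.47, against 9.82, 10.59 and 11.46. miR-18a stood at 10.33 and 5.08, against 5.77, 7.11 and 8.33. The 2 carcinomas thus lay at opposite ends of the carcinomas, 20.2-fold apart for miR-17-5p and 37.9-fold for miR-18a.

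miR-19a stood at 11.18 and 6.60, against 8.15, 9.13 and 9.70. miR-19b, of the seed family that promotes lymphoma with Myc in mice, stood at 12.79 and 9.32, against 10.84, 11.76 and 12.39. miR-92a, from the last hairpin of the cluster, 707 bases from that of miR-17 on chromosome 15, stood at 12.68 and 8.65, against 9.98, 11.30 and 11.78. These were among the brightest miRNAs of spontaneous carcinoma 1, where miR-19b, miR-92a and miR-20a ranked 2, 3 and 4 after miR-26a. In radiation-induced carcinoma 3 they ranked 42, 54 and 56.

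The paralogous cluster on chromosome 12 parted them the same way. miR-106b stood at 11.32 and 8.90, against 9.91 to 10.85 in the others. miR-93 stood at 10.57 and 7.99, against 8.62 to 9.99. miR-25 stood at 10.83 and 8.48, against 9.48 to 10.40. The differences were smaller than for the miRNAs of the chromosome 15 cluster. The values of radiation-induced carcinoma 3 lay near the normal tissue, where miR-106b spanned 8.56 to 9.58. The mature sequences of miR-17-5p, miR-19b and miR-92a also come from chromosome X, so their signal cannot be assigned to chromosome 15 alone.

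The X-linked paralogues were dim in most arrays. miR-363 stood at 7.46 in spontaneous carcinoma 1 and was detected on 5 of the 14 others, which reached at most 4.93. miR-20b-5p stood at 6.50 and was detected on 4 of the others, which reached at most 4.26. Both were at the floor in radiation-induced carcinoma 3, as in several other carcinomas, so no direction was read there.

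**Figure D3:**
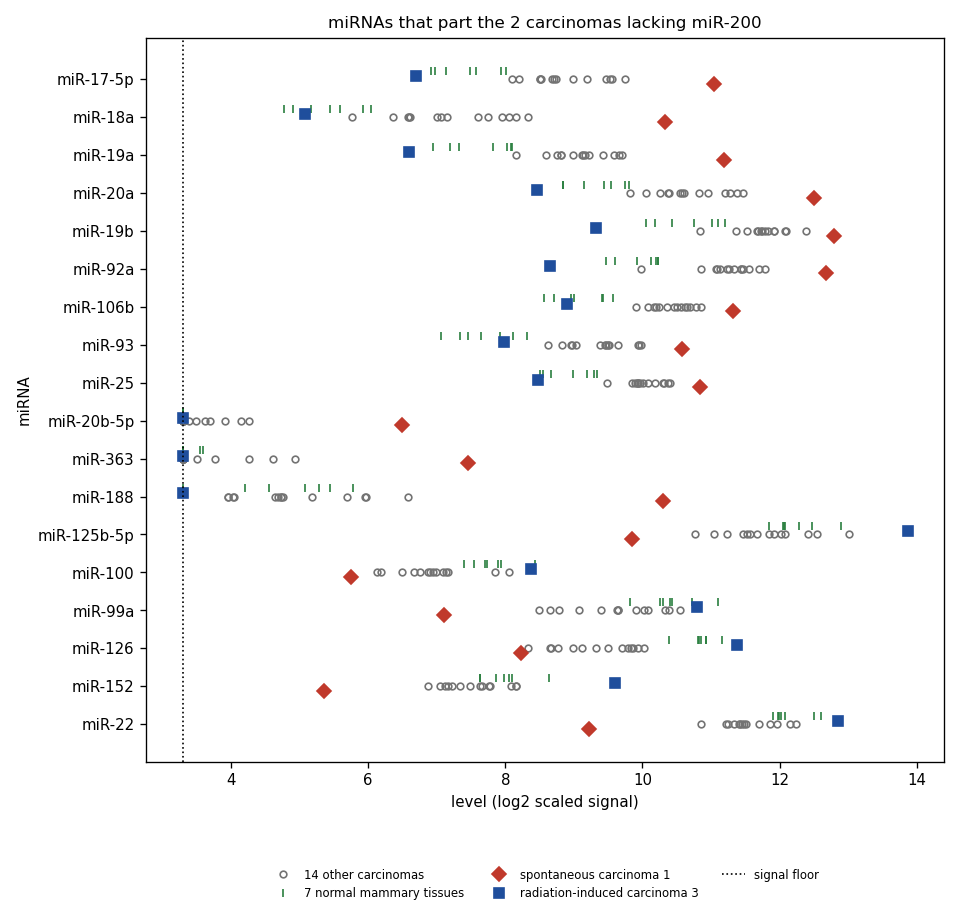
Level (log2 scaled signal) of miR-17/miR-92a cluster members, paralogues and other miRNAs in which the 2 carcinomas part; each point or tick is 1 array and the dotted line is the floor. Spontaneous carcinoma 1 lies right of all 14 others for the cluster (12.79 for miR-19b) and left of them for miR-125b-5p, miR-100, miR-99a, miR-126, miR-152 and miR-22, where radiation-induced carcinoma 3 lies right.

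Outside this cluster, miR-188 made the widest split. It stood at 10.30 in spontaneous carcinoma 1 and at the floor in radiation-induced carcinoma 3, against 3.96, 4.73 and 6.58 in the others. miR-125a-3p stood at 7.30 and 3.71, against 4.39 to 5.59. For both, the value of radiation-induced carcinoma 3 was within the others without scaling or with a raised floor. miR-103 and miR-107, relatives that act on insulin signalling in mouse liver, stood at 11.17 and 11.05 in the former and 9.63 and 9.71 in the latter, against 9.86 to 10.81 and 9.88 to 11.01. Both fell inside the others in radiation-induced carcinoma 3 under 5 of the 10 other ways of processing, and miR-107 did so in spontaneous carcinoma 1 under 4.

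The 7 miRNAs low in spontaneous carcinoma 1 and high in radiation-induced carcinoma 3 included miR-99a, miR-100 and miR-125b-5p, of a group hosted with let-7 in shared transcripts. miR-125b-5p stood at 9.85 and 13.87, against 10.77, 11.76 and 13.02 in the others. miR-99a stood at 7.11 and 10.80, against 8.50, 9.64 and 10.54. miR-100 stood at 5.75 and 8.37, against 6.13, 6.92 and 8.05. The split was 16.2-fold for miR-125b-5p, which was the second brightest miRNA of radiation-induced carcinoma 3 after miR-21.

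miR-152, which targets a DNA methyltransferase, stood at 5.35 and 9.60, against 6.87, 7.55 and 8.16. miR-22, abundant in heart muscle, stood at 9.22 and 12.86, against 10.85, 11.46 and 12.24. Both lay above all normal tissues in radiation-induced carcinoma 3 and below all of them in spontaneous carcinoma 1. miR-674-3p, found in rodents, stood at 4.79 and 6.90, against 5.23 to 6.87, so that radiation-induced carcinoma 3 only just exceeded the highest other.

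In spontaneous carcinoma 1 alone, the miR-130 and miR-301 family was high, with all 4 members above all 14 others. Over all miRNAs compared, 28.4% lay above there. miR-130b stood at 10.05, against 3.30, 5.65 and 7.41 in the others. miR-301b, 347 bases from miR-130b on chromosome 11, stood at 7.83 and was detected on 1 of the 14 others, which reached at most 3.72. It was thus compared only because spontaneous carcinoma 1 showed it. miR-301a stood at 10.72, against 7.31, 8.07 and 8.86. The smallest difference was that of miR-130a, at 10.76 against at most 10.75 in the others, and it was not outside them under 5 of the 10 other ways of processing. In radiation-induced carcinoma 3, miR-130b and miR-301b were at the floor.

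Several other miRNAs were above the others in spontaneous carcinoma 1 alone. miR-877, cut from an intron, stood at 7.33 against at most 4.62 in the others. miR-874 stood at 6.61 against at most 4.46. Of the imprinted Dlk1-Dio3 cluster, a large miRNA locus that is active on the maternal allele, miR-494 stood at 10.55 against at most 9.85 and miR-539 at 6.47 against at most 6.04. miR-134 stood at 6.08 against at most 4.10, and miR-382 at 4.32 against at most 4.03. Since miR-134 was detected on 1 of the 14 others and miR-382 on none, these 2 were compared only because a carcinoma lacking miR-200 showed them.

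Of the 8 let-7 family members, which restrain Ras, Hmga2 and Lin28, 6 lay below all 14 others in spontaneous carcinoma 1, where 28.9% of all miRNAs compared did. With quantile normalization or normexp 4 of the 8 did. let-7c stood at 10.64, against 12.94, 13.34 and 13.77 in the others, and let-7b at 10.12, against 12.31, 12.85 and 13.26. These were 6.48-fold and 6.52-fold under the mean of the others. In radiation-induced carcinoma 3, let-7c at 13.23 and let-7b at 12.42 lay within the others. Against its own kind alone, let-7b lay below all 7 others there.

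All 3 members compared of the p53-induced miR-34 family lay below in spontaneous carcinoma 1, although miR-34c did so in only 4 of the 10 other ways of processing. Over all miRNAs compared, 28.9% lay below there. miR-34a stood at 6.59, against 9.21, 9.66 and 10.68, and miR-34b at the floor, against 4.97, 7.04 and 7.99. In radiation-induced carcinoma 3 they stood at 10.61 and 7.69, high within the range of the others. There 2 of the 3 members lay above the range when arrays were scaled on all probes, and all 3 did after quantile normalization or normexp.

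miR-29a, miR-29b and miR-29c, which silence collagen messages, stood at 9.80, 9.82 and 7.23 in spontaneous carcinoma 1, under the lowest of the others at 11.15, 10.21 and 8.46. miR-195 and miR-497, which share a transcript and hold back cyclins, stood at 7.18 and 7.20, against 8.61 to 11.73 and 8.66 to 11.72. In radiation-induced carcinoma 3 all 5 lay within the others, with miR-195 at 11.26 and miR-497 at 11.42. Against its own kind alone, miR-29a at 11.74 and miR-29b at 10.73 lay below all 7 others there.

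miR-204, best known from the eye's pigment epithelium, was at the floor in spontaneous carcinoma 1, at least 90.7-fold under the mean of the others, which ran through 5.40, 10.84 and 12.23, and stood at 9.77 in radiation-induced carcinoma 3. miR-146b, which dampens innate immune signalling together with miR-146a, stood at 5.34, against 9.01, 9.97 and 11.85, and miR-146a at 6.57, against 8.65, 9.51 and 10.72. miR-21, raised in many carcinomas, stood at 12.36, under all 14 others (13.99, 15.04 and 15.89) and under all 7 normal tissues (13.17 to 15.13). It was the brightest miRNA of radiation-induced carcinoma 3 at 14.85 and ranked 5 in spontaneous carcinoma 1.

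miRNAs of the Hox gene clusters, which repress Hox genes near their own loci, were above all 14 others in radiation-induced carcinoma 3 for 4 of the 5 compared, and in spontaneous carcinoma 1 for the fifth, miR-196b. Over all miRNAs compared, 13.8% were above in the former and 28.4% in the latter. miR-196b stood at 5.93 in the latter and 4.53 in the former, against 3.30, 3.97 and 5.23 in the others. miR-196a stood at 8.37 in radiation-induced carcinoma 3 and was detected on 4 of the 14 others, among which radiation-induced carcinoma 7 reached 8.27. miR-196c stood at 6.53, against 6.34 in radiation-induced carcinoma 7, so that for both the 2 arrays lay close together. miR-10b, linked to invasion in breast cancer models, stood at 10.02, against 6.92, 8.04 and 9.61, and miR-10a-5p at 8.37, against 5.90, 6.97 and 7.71. Normal tissue was at 10.55 to 11.07 for miR-10b, above every carcinoma, and at 6.31 to 7.14 for miR-196a. With the total gene signal per miRNA as the measure, 2 of the 5 lay above, and miR-196a and miR-196c no longer did.

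miR-221 and miR-222, a cluster that silences the cell-cycle inhibitor p27, stood at 10.42 and 6.20, against 7.06 to 9.92 and 3.30 to 5.76 in the others. miR-335, hosted by the imprinted gene Mest, stood at 8.35, against 3.30, 3.44 and 7.35. miR-132, induced by CREB, stood at 7.05, against 3.69, 4.43 and 5.30. miR-224 stood at 7.21, against 3.31, 4.63 and 6.09. All 5 lay within the range of the others in spontaneous carcinoma 1, where miR-335 stood at 6.34. Against its own kind alone, however, miR-221 at 8.89, miR-222 at 5.56 and miR-335 lay above all 7 others there.

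Some dim members of the Dlk1-Dio3 cluster were above all 14 others in radiation-induced carcinoma 3. miR-127 stood at 6.00, against at most 4.74 in the others, and was at the floor in spontaneous carcinoma 1. miR-434 stood at 5.30 against at most 4.52, miR-379 at 4.97 against at most 3.71, and miR-300-3p at 4.44 against at most 3.72. Each was detected on 1 or 2 of the 14 others, so their place among those compared rested largely on radiation-induced carcinoma 3. Only 2 members of the cluster were detected on at least 7 of all 23 arrays, and neither lay above in radiation-induced carcinoma 3.

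On the low side, radiation-induced carcinoma 3 was set apart by few bright miRNAs beyond those shared or opposite. miR-101b, which silences the histone methyltransferase Ezh2, stood at 6.89, against 8.30, 9.14 and 10.42. miR-210, induced by low oxygen, stood at 5.20, against 5.59, 7.65 and 9.27, and at 9.18 in spontaneous carcinoma 1. miR-139-3p stood at 4.67, against 4.99, 7.26 and 9.36. miR-425, miR-872 and miR-33 stood at 5.93, 5.17 and 4.34, under the lowest of the others at 6.70, 5.91 and 5.13. Without scaling, miR-425 alone of these 6 stayed below the others, and miR-872 fell inside their range under 5 of the 10 other ways of processing.

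**Figure D4:**
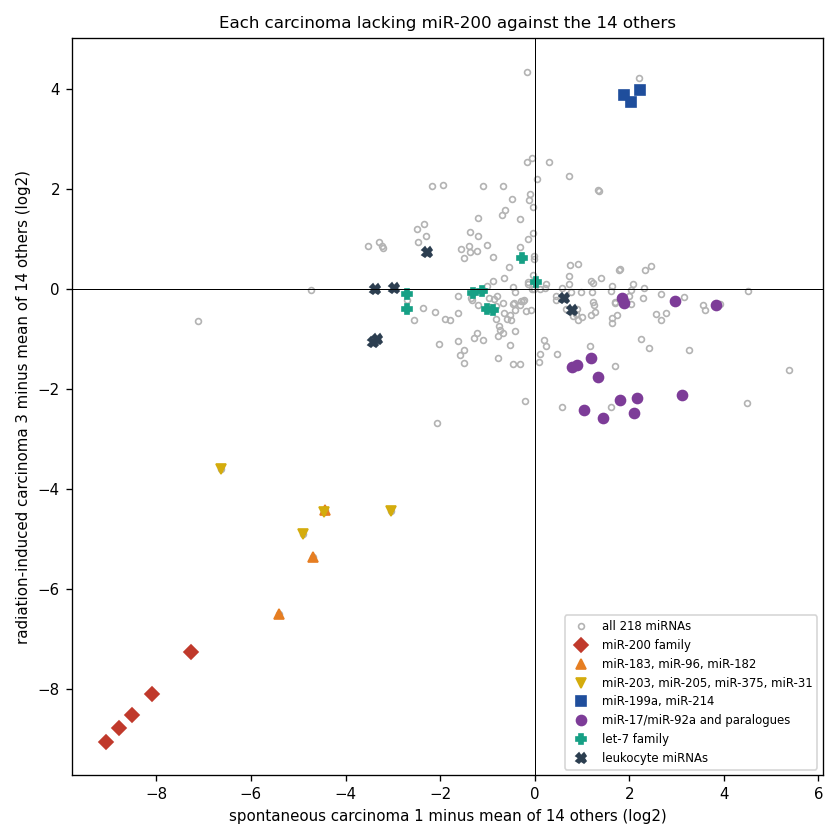
Difference of each of the 218 miRNAs from the mean of the 14 others (log2), in spontaneous carcinoma 1 (horizontal) and radiation-induced carcinoma 3 (vertical), with 7 lists coloured. The epithelial lists lie low on both axes, miR-199a and miR-214 high on both, and the miR-17/miR-92a list right of 0 and below it. Of its 14 members, 10 lay below all 14 others in radiation-induced carcinoma 3, as did 20.2% of all miRNAs.

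Technical measures of the 2 arrays lay within or near those of the others of their kind. The 75th percentile of signal before scaling was 661 in spontaneous carcinoma 1, against 335 to 936 in the 7 other spontaneous carcinomas, and 1227 in radiation-induced carcinoma 3, against 729 to 2032. They detected 167 and 191 miRNAs, against 154 to 174 and 169 to 205. The 10 brightest miRNAs held 42.4% and 58.3% of the signal, against 48.5% to 53.8% and 45.4% to 55.1%, outside the range on both. The 2 arrays lay on different slides of 4. Against the 1 other carcinoma on its slide and against the 4 others on its slide, the median difference of the miR-200 family was -8.69 and -8.62, close to that against all 14. Files of different arrays were not copies of each other, with correlations of 0.646 to 0.994.

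The level of miR-200c also varied among the 14 other carcinomas, from 11.83 to 13.20, and the rule did not use that variation. Whether other miRNAs followed it there was tested by limma as a slope on the miR-200c level with the kind of carcinoma as a term, with Benjamini-Hochberg adjustment over the 216 other miRNAs that could be fitted. Of these, 8 rose with miR-200c (3.7%) and 4 fell (1.85%) at an adjusted p under 0.05, and 51 had an unadjusted p under 0.05.

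miR-141 rose with its neighbour miR-200c, with a slope of 1.12 ± 0.18 (SE, n = 14 arrays) and an adjusted p of 0.00527 by limma. The slopes of the chromosome 5 members were -0.35 ± 0.35 for miR-200a, -0.08 ± 0.31 for miR-200b and -0.08 ± 0.33 for miR-429, and none passed. In the miR-183 cluster, miR-182 had a slope of 1.20 ± 0.34 (adjusted p = 0.0579 by limma), miR-96 of 0.92 ± 0.27 (0.0662) and miR-183 of 0.76 ± 0.30 (0.151). None of these 3 passed.

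miR-205 fell as miR-200c rose among the 14, with a slope of -2.28 ± 0.61 and an adjusted p of 0.0484 by limma, whereas in both carcinomas lacking miR-200 it was low together with miR-200c. miR-31 had a slope of -2.84 ± 0.89 (adjusted p = 0.0773 by limma) and did not pass. miR-199a-5p, miR-199a-3p and miR-214 had slopes of 0.46 ± 0.74, 0.24 ± 0.76 and -0.14 ± 0.73, with adjusted p-values of 0.772, 0.889 and 0.924 by limma. Of the 20 miRNAs shared by the 2 carcinomas other than miR-200c and the near-floor miR-350, miR-141 and miR-205 were the 2 that passed. Among all miRNAs fitted, 12 of 216 passed, and nothing is read from this count.

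Of the rest that passed, miR-204 fell with a slope of -4.78 ± 0.94, and miR-143 and let-7i fell with slopes of -2.44 ± 0.61 and -1.18 ± 0.29. miR-101b, miR-193, miR-181a*, miR-17-3p, miR-19b, miR-20a* and miR-494 rose. Of these, miR-181a* and miR-17-3p were at the floor on several of the 14 arrays and reached at most 4.74 and 4.27. With the slide as a block none of the 216 passed, 31 had an unadjusted p under 0.05, and miR-141 had a slope of 1.03 with an adjusted p of 0.275 by limma. Without spontaneous carcinoma 4, the array with the most miR-200c, none passed either (26 at an unadjusted p under 0.05), and miR-141 had an adjusted p of 0.127.

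**Figure D5:**
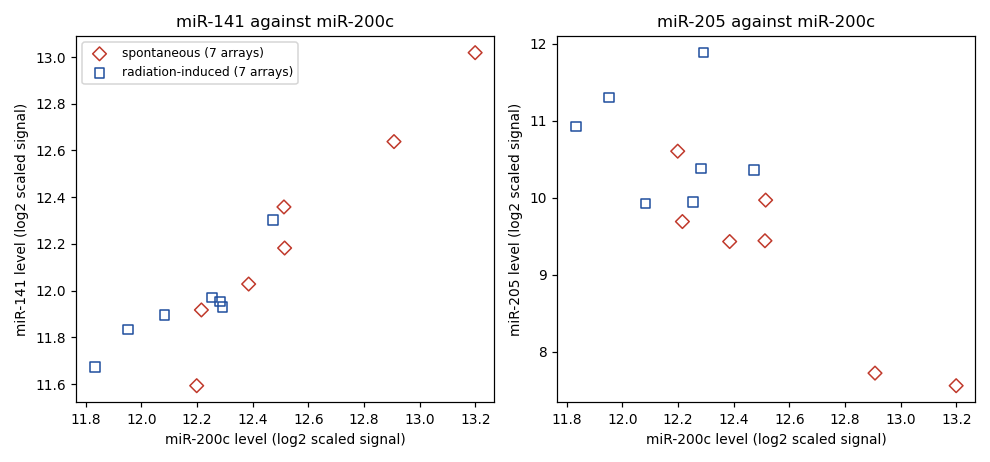
Level of miR-141 (left) and miR-205 (right) against that of miR-200c (log2 scaled signal) in the 14 carcinomas with miR-200c, 1 point per array, by kind of carcinoma. miR-141 rises with miR-200c from 11.59 to 13.02, and for miR-205 the 2 lowest points, at 7.72 and 7.56, are spontaneous carcinomas 3 and 4, the 2 arrays with the most miR-200c.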

How the data were processed

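Per the labels' protocols, a column kit gave total RNA, which was dephosphorylated and tagged with pCp-Cy3 at its 3′ end. The deposited scanner files, written by Agilent Feature Extraction (version 9.5.1.1) per the file headers, give spot intensity on a linear scale, background-subtracted but not scaled between arrays. The deposited values used for the choice are total gene signals, again linear intensity: of 4489 values above the minimum of 5, 100% matched the scanner files within 1%. No source used here states where that minimum comes from, or whether animals were pooled.

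From the deposited intensity, control spots (953 of each array) and spots marked as outliers (2.946%) were dropped and the remaining spots of each of 938 probes averaged. Detection required more than 50% of a probe's spots to be well above background. Arrays were scaled to a common 75th percentile of the 199 probes that all 23 detected. Signals then under 9.82, the arrays' median of the dimmest readable signal, were set to it before log2. Of the 350 miRNAs, 347 had several probes, and the brightest on average stood for the miRNA. Names are those of the array design. The scanner files hold no mean spot signal, so the normexp alternative used median signals. The header names build rn4, so GRCr8 served only for sequences, chromosomes and distances between hairpin starts. R 4.3.3, limma 3.58.1 and the package data.table (version 1.17.8) were used, and the steps were tested on simulated data. Carcinoma numbers follow deposit order and pair nothing.

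The members and the lists were chosen with earlier results of these data known. The text names the miR-200 family, the miRNAs outside the range on both arrays with the largest smaller gap (up to 15 each way), the 8 above and 8 below with the largest gap on each array alone, up to 4 members per list with the largest mean difference, and the 10 smallest slope p-values. miRNAs named beyond this rule, such as miR-19a, miR-10a-5p, miR-223 and those outside the range in opposite directions, were chosen after their values were seen. Alternatives were other scalings, backgrounds, signals, floors, filters and reference arrays, and leaving out each array of the slope. P-values measure the spread between these samples.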

Additional observations from a re-analysis of the deposited data

Results flagged for a closer look

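Within each kind of tissue, an array was noted where its gap to the nearest of its group, divided by the group's range, passed Dixon's 95% limit (0.526 for 8 arrays, 0.568 for 7). Over 116 named miRNAs and 3 groups this gave 85 cases in 348 groups. In several groups the other arrays were tied at the floor, where 1 array barely above it passes. A chance rate of 1 in 20 therefore does not hold for this count. Normal tissue 4, for example, passed for miR-30d* at 3.2994. Of the 85 cases, 60 fell on the 2 carcinomas lacking miR-200 and 25 elsewhere. Spontaneous carcinoma 1 stood apart as the highest of its kind in 15 miRNAs and as the lowest in 19. Radiation-induced carcinoma 3 stood apart as the highest in 9 and as the lowest in 17. Since the named miRNAs were picked for their gaps on these 2 arrays, these counts describe the choice. Among the other radiation-induced carcinomas, number 1 stood apart as the highest in 3 miRNAs, number 2 in 1, number 4 in 3, number 5 in 2 and number 6 in 3. Spontaneous carcinoma 8 did so in 1. Among normal tissues, number 2 was highest in 1 and lowest in 1, number 3 highest in 4 and lowest in 2, number 4 highest in 1, number 5 in 2 and number 6 in 1. The 14 miRNAs above all others in spontaneous carcinoma 1 and below in radiation-induced carcinoma 3, and the 7 the other way round, were noted as opposite in direction, and that difference was not tested.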

How the results depend on the processing

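No paired analysis was possible because the carcinomas' numbers come from deposit order and the 2 carcinomas carry no test. The counts below all 14 others on both arrays (18), above on both (4), and on each array alone depended on scaling, which moved the median of all miRNAs in radiation-induced carcinoma 3 by up to 0.47 (no scaling). With the 75th percentile over all probes, 9 lay above on both and 46 above in radiation-induced carcinoma 3. With quantile normalization these were 13 and 48, and 29 lay below in radiation-induced carcinoma 3. Without scaling, 14 lay outside on both, 10 of them below, 18 lay below in radiation-induced carcinoma 3, and 4 were above in spontaneous carcinoma 1 and below in it. With normexp, 14 lay above on both, 49 above in radiation-induced carcinoma 3 and 14 above in it and below in spontaneous carcinoma 1. With total gene signal, 30 lay below on both and 22 were opposite with spontaneous carcinoma 1 above. With the deposited values, 41 lay above in spontaneous carcinoma 1, 23 below in radiation-induced carcinoma 3 and 6 were opposite that way. Against the 7 of its own kind, 39 lay outside on both (29 below, 10 above), 69 below and 47 above in radiation-induced carcinoma 3, and 23 and 15 were opposite. Taking 1 of the 2 carcinomas alone, 74 to 125 lay outside, 44 to 63 below and 30 to 62 above. Of the 18, between 10 (no scaling) and 18 remained below on both. The difference of miR-350 turned to -0.0035 (quantile) and -0.0017 (no scaling) in spontaneous carcinoma 1 and to -0.0339 (total gene signal) in radiation-induced carcinoma 3, and that of let-7d in the latter to 0.0272 (all probes), 0.222 (no scaling) and 0.171 (deposited values). Of 2320 alternative values of 232 differences of named miRNAs, 1803 stayed within 1 SD of the others, 511 moved further and 6 reversed. The 12 miRNAs that passed the slope by limma became 4 with all probes, 2 with quantile normalization, 88 without scaling, 1 with normexp, 20 with total gene signal, 75 with the deposited values, 43 without the term for kind and 0 with the slide as a block. Leaving out 1 array gave 0 to 25. The count moved by over 1.5 times without spontaneous carcinoma 3 (4), 4 (0), 5 (3), 6 (7), 7 (4) or 8 (1) and without radiation-induced carcinoma 2 (6), 5 (25) or 8 (4). The adjusted p of miR-141 by limma ran from 7.78e-05 to 0.275 over the 26 alternatives. The causes were not tested. Signals at the floor give bounds only, and 14 arrays limit the precision of the slope.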
